A study of Zea mays with 9 samples.

Results

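CCD7, CCD8 and CYCLOPS are 3 genes of maize placed here under strigolactone synthesis and symbiosis signalling. They were chosen by their identifiers from the 45260 genes of the deposited expression table. CCD7 (Zm00001d002736) and CCD8 (Zm00001d043442) encode carotenoid cleavage dioxygenases of strigolactone synthesis, and CYCLOPS (Zm00001d035962) is named after a regulator of symbiosis signalling. The names are those used in the study, since the table holds identifiers without names. RNA was taken from primary root apices of seedlings of the maize inbred line B73, germinated for 3 days, kept in a solution without nitrogen, and then held for 24 h in 1 of 3 nutrient solutions. The −N seedlings stayed without nitrogen, the +NO3- seedlings received 1 mM nitrate, and the +NO3- + cPTIO seedlings received 1 mM nitrate together with 1 mM cPTIO, a compound that scavenges nitric oxide (NO). All groups are the same inbred line without any transgene. No group used here received cPTIO without nitrate, so a response to the compound itself and a response to the loss of NO cannot be told apart. Each solution has 3 libraries in the labels, each a pool of plants (10 to 15 by the labels, a larger number by the study's methods). In +NO3- + cPTIO, 2 of the 3 were kept after quality filtering. The labels mark the −N and +NO3- libraries as re-analyzed, and the study states that an earlier work had already analysed them. Whether the cPTIO libraries were made and sequenced together with them is not stated. A difference between these sets of libraries therefore cannot be told apart from an effect of cPTIO. The table gives a single RPKM (reads per kilobase of transcript, scaled to library size, here with quartile normalization between libraries) per gene and solution, pooled over libraries. The authors' own tests of these contrasts were not used here. The differences below are therefore given without a replicate check, an error or a test, as descriptions of the pooled values.

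Strigolactones are carotenoid-derived hormones. An isomerase (D27) first turns all-trans-β-carotene into its cis form. CCD7 cleaves this product, and CCD8 converts the resulting apocarotenoid into carlactone, the precursor from which cytochrome P450 enzymes of the MAX1 type make the active compounds. Inside the plant strigolactones restrain shoot branching and shape the root system, and roots that are short of phosphate or nitrogen release them into the soil, where they stimulate hyphal branching of arbuscular mycorrhizal fungi and germination of parasitic Striga seeds. CYCLOPS acts on the receiving side of the symbiosis. In legumes it is a DNA-binding protein of the nucleus that the calcium- and calmodulin-dependent kinase CCaMK phosphorylates when the root perceives a symbiont, and in rice it is needed for colonisation by mycorrhizal fungi.

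The 3 genes lie on different chromosomes of the AGPv4 assembly. As the table gives them, CCD7 spans chr2:20731282-20734451, CCD8 spans chr3:200059007-200062529 and CYCLOPS spans chr6:62954326-62957508. The spans run from the first to the last exon and include introns, and measure 3169, 3522 and 3182 bases. No other gene of the table overlapped any of them. In a RefSeq gene table of a later assembly, 1 gene each carries the name CCD7, on chromosome 2, and CCD8, on chromosome 3, the same chromosomes as here, while the name CYCLOPS was found for 0 genes.

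All 3 genes were highest without nitrogen. CCD7, which makes the first cleavage, stood at an RPKM of 2.85 in −N, 0.976 in +NO3- and 0.286 in +NO3- + cPTIO. CCD8, which forms carlactone, stood at 7.94, 1.98 and 0.730 RPKM, in the same order. Both dioxygenase genes thus stepped down from −N to nitrate and again from nitrate to nitrate with the scavenger. CYCLOPS, named after the symbiosis regulator, had 5.94 RPKM in −N, 2.73 in +NO3- and 2.51 in +NO3- + cPTIO. It thus differed little between the solutions with nitrate.

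**Figure D1:**
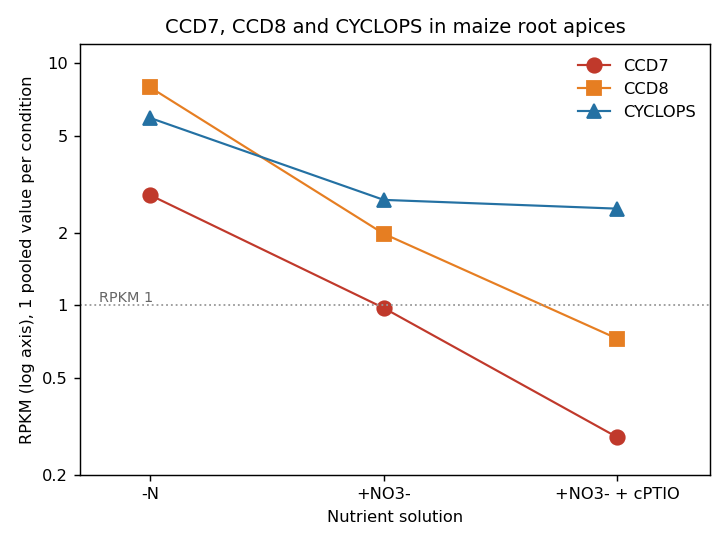
RPKM of CCD7, CCD8 and CYCLOPS (logarithmic axis) in −N, +NO3- and +NO3- + cPTIO, each point 1 pooled value without error. CCD7 went from 2.85 to 0.286 and CCD8 from 7.94 to 0.730 over the 3 solutions, while CYCLOPS stood at 2.73 in +NO3- and 2.51 in +NO3- + cPTIO. The dotted line marks an RPKM of 1, the minimum used for counts over all genes.

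The order of the genes by level changed between solutions. RPKM is a level per length, so that levels of different genes can be set side by side. In −N the order was CCD8, CYCLOPS and CCD7, and in both nitrate solutions it was CYCLOPS, CCD8 and CCD7. The level of CYCLOPS was 0.748 times that of CCD8 in −N, 1.38 times in +NO3- and 3.44 times in +NO3- + cPTIO. Whether neighbours in these orders differ beyond the spread between libraries cannot be said from single values. The CCD8 level was 2.78 times the CCD7 level in −N, 2.02 times in +NO3- and 2.55 times in +NO3- + cPTIO. The dioxygenase genes therefore kept their order in every solution, with a ratio between 2.02 and 2.78 while each gene itself went to about 10.0% of its −N level.

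None of the 3 was an abundant transcript. In −N, 12647 genes of the table had a level at or above that of CCD8, 14111 at or above that of CYCLOPS and 17063 at or above that of CCD7. With nitrate and cPTIO, 17511 genes were at or above CYCLOPS, 21167 at or above CCD8 and 23388 at or above CCD7. What 1 read was worth was estimated from the most common low values of short genes. The estimate was about 0.021 in units of RPKM times kilobases in −N and in +NO3-, and about 0.029 in +NO3- + cPTIO. Multiplied out over its whole span, CCD7 would rest on roughly 430 reads in −N, 147 in +NO3- and 31.3 in +NO3- + cPTIO. For CCD8 the same figures were 1331, 332 and 88.6 reads, and for CYCLOPS 900, 413 and 275. They are rough, since exons are shorter than the span, and they give the order of counting precision only, which was lowest for CCD7 under cPTIO. The spread between plants is not part of them.

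The first comparison, +NO3- against −N, asks which genes nitrate changes. All 3 genes reached the minimum of 1 RPKM in at least one of the solutions compared, CCD7 only in −N, where it was high, and all 3 were over 2-fold lower with nitrate. Of the 21290 genes that passed the same minimum, 2.54% were over 2-fold lower and 5.24% over 2-fold higher. The study had picked the 3 genes from its list of 835 nitrate-responsive genes, which was drawn from these libraries, so their direction here restates that choice. CCD8 was 4.02-fold lower (a log2 ratio of −2.01), CCD7 2.92-fold lower (−1.55) and CYCLOPS 2.18-fold lower (−1.12). The level with nitrate was 24.9% of the −N level for CCD8, 34.2% for CCD7 and 45.9% for CYCLOPS. The median log2 ratio of the 3 genes was −1.55, against 0.04 over all 21290 genes.

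Among all tested genes, the gene itself always counted, 163 were as low as CCD8 or lower in this ratio, which is 0.766% of them. For CCD7 the count was 266 genes (1.25%) and for CYCLOPS 448 genes (2.10%). Ratios of weakly expressed genes scatter more, so each gene was also placed among genes whose −N level was within 2-fold of its own. Of 7060 such genes around CCD8, 63 (0.892%) were as low or lower. Around CCD7, the most weakly expressed of the 3, it was 113 of 4978 genes (2.27%), and around CYCLOPS 168 of 6448 (2.61%). Because the study had picked the 3 genes as nitrate-responsive in these libraries, a low place was set in advance. The shares, also those among genes of like level, only locate the 3 genes.

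The second comparison, +NO3- + cPTIO against +NO3-, asks what scavenging NO changes while nitrate is present. Here 2 of the 3 genes passed the minimum, since CCD7 was below 1 RPKM in both solutions. Of those 2, CCD8 was over 2-fold lower and CYCLOPS was not. CCD8 passed only through +NO3-, the solution where it was high, so this count is a description only. The share over 2-fold lower was 12.7% of 21617 genes, and 7.08% were over 2-fold higher. CCD8 was 2.71-fold lower with the scavenger (a log2 ratio of −1.44) and kept 36.9% of its +NO3- level. CCD7, outside the minimum, was 3.41-fold lower (−1.77) and kept 29.3%. CYCLOPS was 1.09-fold lower (−0.12) and kept 92.0%. The median over all tested genes was −0.07, so CYCLOPS stood close to the middle of all genes.

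In this comparison a low ratio was more common. Among the 21617 genes, 1490 (6.89%) were as low as CCD8 or lower, and 10097 (46.7%) were as low as CYCLOPS or lower. At the low levels of CCD7 and CCD8 in +NO3- the share was larger again. Of 3976 genes with a +NO3- level within 2-fold of that of CCD7, 29.4% were over 2-fold lower with cPTIO, and 644 (16.2%) were as low as CCD7 or lower. Of 4605 genes around the CCD8 level, 23.6% were over 2-fold lower and 687 (14.9%) were as low as CCD8 or lower. A further step as large as that of the dioxygenase genes was therefore seen in many genes of like +NO3- level. These shares cannot be set against those given for nitrate. The latter came from other genes, matched on the −N level, and from the contrast by which the study had picked the genes. The cPTIO contrast was not free of choice either. The study names CCD7 and CCD8 within a group of genes lower again with cPTIO, formed from these same values. A low place of CCD7 and CCD8 was thus set in advance here too, and the shares only locate them.

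**Figure D2:**
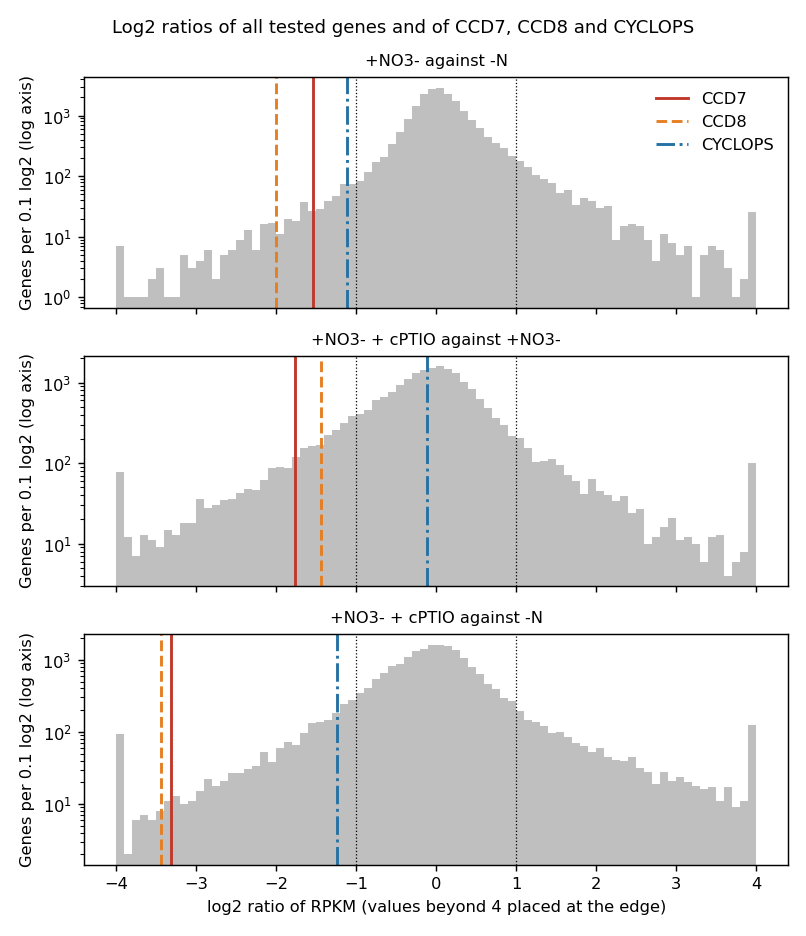
Log2 ratios of RPKM in the 3 comparisons for all genes that reached 1 RPKM in either solution (grey bars, number of genes on a logarithmic axis), with CCD7, CCD8 and CYCLOPS as vertical lines and 2-fold limits dotted. Genes listed at 0 in 1 solution have no finite ratio and are not drawn, and CCD7 is below the minimum in the middle panel. The lines of CCD7, CCD8 and CYCLOPS lie at −1.55, −2.01 and −1.12 in the upper panel. In the middle panel they lie at −1.77, −1.44 and −0.12. The 3 genes were picked as nitrate-responsive, so their place in the upper panel restates that choice. The study also grouped CCD7 and CCD8 as lower again with cPTIO, so their place in the middle panel restates that grouping.

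The third comparison, +NO3- + cPTIO against −N, sets both treatments together against the starved state. It shares a solution with each of the other comparisons and is no separate evidence. All 3 genes passed the minimum and all 3 were over 2-fold lower, as were 9.21% of 21312 genes, with 8.33% over 2-fold higher. CCD7 and CCD8 passed only through −N, the solution where they were high, so their part in this count supports nothing. CCD8 was 10.9-fold lower (a log2 ratio of −3.44) and CCD7 9.97-fold lower (−3.32), so that 9.19% and 10.0% of their −N levels remained. CYCLOPS was 2.37-fold lower (−1.24), with 42.3% remaining. Genes as low or lower numbered 221 (1.04%) for CCD8, 234 (1.10%) for CCD7 and 1354 (6.35%) for CYCLOPS. Among genes within 2-fold of the −N level of each gene, the shares were 1.23% around CCD8, 2.25% around CCD7 and 6.96% around CYCLOPS. The study had picked the 3 genes as lower with nitrate, and grouped CCD7 and CCD8 as lower again with cPTIO. These places were therefore also set in advance and only locate the genes.

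In RPKM, the step from −N to nitrate was larger than the step from nitrate to nitrate with cPTIO for all 3 genes. CCD8 was lower by 5.96 RPKM in the former step and by 1.25 RPKM in the latter. For CCD7 these steps were 1.88 and 0.690 RPKM, and for CYCLOPS 3.21 and 0.218 RPKM. On the log2 scale the order was different for CCD7, whose ratio under cPTIO (−1.77) exceeded in size that with nitrate (−1.55). The summed level of CCD7 and CCD8 was 10.8 RPKM in −N, 2.95 in +NO3- and 1.02 in +NO3- + cPTIO.

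The study had divided its 835 nitrate-responsive genes into 6 clusters by their profile over these same values, and placed CCD7 and CCD8 in cluster 3 (97 genes, lower with nitrate and lower again with cPTIO) and CYCLOPS in cluster 2 (124 genes, lower with nitrate, with a similar level under cPTIO). The clusters were built from the RPKM values that also give these ratios, so what follows only locates each gene within its cluster. With nitrate, CCD8 was among the lowest of cluster 3, since 14 of the 97 genes, itself included, were as low or lower, and the cluster median was −1.41. For CCD7 the count was 42 genes. Under cPTIO against +NO3-, both were milder than the cluster median of −2.25, with 58 genes as low as CCD7 or lower and 65 as low as CCD8 or lower. CYCLOPS was among the less changed genes of cluster 2 with nitrate, where 107 of 124 genes were as low or lower and the median was −1.71. Under cPTIO against +NO3- it stood below the cluster median of 0.33, with 26 genes as low or lower, so that CYCLOPS did not share the higher level of most genes of its cluster.

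The genes next to CCD7, CCD8 and CYCLOPS were compared with them. CCD8 has 1 neighbour within 100 kb, at a gap of 71.5 kb, with an RPKM of 10.8 in −N, 10.4 in +NO3- and 9.33 in +NO3- + cPTIO. CCD7 has 5, all at lower coordinates, of which 2 are listed at 0 in every solution. Its nearest neighbour, at a gap of 4.05 kb, had an RPKM of 14.5, 15.4 and 8.79 in −N, +NO3- and +NO3- + cPTIO. This gene was hardly different with nitrate (a log2 ratio of 0.09), whereas under cPTIO it was lower than in +NO3-, at −0.81.

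CYCLOPS has 3 neighbours within 100 kb, all at higher coordinates. The nearest one, at a gap of 0.741 kb, had an RPKM of 1.69 in −N, 3.93 in +NO3- and 1.09 in +NO3- + cPTIO, so that it was higher with nitrate where CYCLOPS was lower. The gene at a gap of 4.31 kb was abundant, with 172, 156 and 143 RPKM, and changed little. None of the 7 neighbours with a level above 0 was over 2-fold lower with nitrate, and none was over 2-fold lower in +NO3- + cPTIO than in −N. Over all genes that passed the minimum these shares were only 2.54% and 9.21%, so their absence among 7 genes tells little. Between +NO3- and +NO3- + cPTIO, all 7 were lower with the scavenger, and 3 of them were over 2-fold lower. Their log2 ratios were −1.62 for a neighbour of CCD7 and −1.84 and −1.07 for neighbours of CYCLOPS. Over all genes that passed the minimum, 12.7% were over 2-fold lower in this comparison and the median log2 ratio was −0.07. These 3 neighbours had only 1.34, 3.93 and 4.36 RPKM in +NO3-, and the first passed the minimum only there. The first lies within 2-fold of the +NO3- level of CCD7, where 29.4% of genes were over 2-fold lower. The others lie within 2-fold of that of CYCLOPS, where the share was 20.0%. The count among neighbours is therefore a description only. Strand was not given in the table, and whether the counting used it is not given in the sources used here.

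**Figure D3:**
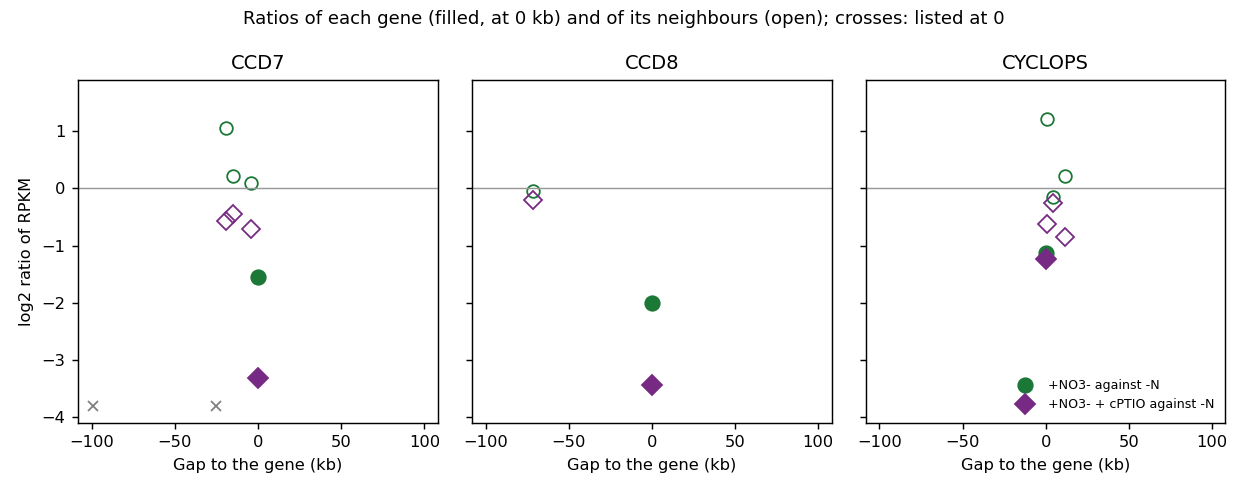
Log2 ratios of RPKM against −N in +NO3- (circles) and in +NO3- + cPTIO (diamonds) for CCD7, CCD8 and CYCLOPS (filled, at 0 kb) and for the genes within 100 kb (open), by the gap between the genes in kb, negative at lower coordinates. Crosses mark genes listed at 0 in every solution, which have no ratio and are drawn at the bottom. The filled symbols of CCD7 and CCD8 lie at −1.55 and −2.01 with nitrate and at −3.32 and −3.44 with cPTIO, below every open symbol.

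Similarity of profile was measured as the distance between genes in the plane of 2 log2 ratios, +NO3- to −N and +NO3- + cPTIO to +NO3-, over the 3 solutions. It rests on 3 values per gene and was computed against 21577 other genes that were above 0 in every solution and reached 1 RPKM in some solution. From CCD8, CCD7 was the gene in place 8, at a distance of 0.57. From CCD7, CCD8 was in place 22. CYCLOPS was in place 327 from CCD8, at a distance of 1.59, and in place 1111 from CCD7, at 1.70. From CYCLOPS, CCD8 was in place 15632 and CCD7 in place 16740, since many more genes lie around CYCLOPS than around the dioxygenase genes, and places therefore depend on the gene they are counted from. CCD7 and CCD8 were thus near each other in profile, though for each of them other genes were nearer. The study had placed both in cluster 3, which was built from these same RPKM values, so their nearness restates that grouping.

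Among the 5 genes nearest to CCD8, the study annotates 2 as peroxidases, both on chromosome 10. Zm00001d024740 had an RPKM of 6.37 in −N, 1.67 in +NO3- and 0.525 in +NO3- + cPTIO, at a distance of 0.25. Zm00001d024738 had 5.80, 1.98 and 0.743 RPKM, at a distance of 0.45. Peroxidases of this class oxidise phenolic compounds in the cell wall, and members of the family can share reads, so that single values are uncertain. The gene second nearest to CCD7 was also annotated as a peroxidase, Zm00001d022284 on chromosome 7, with 9.49, 3.59 and 0.891 RPKM at a distance of 0.28. The nearest of all to CCD7 was Zm00001d049209 on chromosome 4, for which the sources used here give no name, at a distance of 0.11, with 1.06, 0.370 and 0.116 RPKM.

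CYCLOPS had closer companions, as its ratios lie nearer to the bulk of genes. All 5 of its nearest genes were within a distance of 0.08. One of them, Zm00001d006875 on chromosome 2, is assigned by the study to alanine transaminase, an enzyme of amino acid metabolism, and had an RPKM of 10.6 in −N, 4.74 in +NO3- and 4.56 in +NO3- + cPTIO. The nearest, Zm00001d038483, is on chromosome 6 like CYCLOPS and had 1.52, 0.705 and 0.661 RPKM. A gene close in these ratios can differ widely in level.

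The carotenoid pathway supplies the substrate of CCD7. Besides CCD7 and CCD8, the study's pathway table lists 1 nitrate-responsive gene under carotenoid biosynthesis, Zm00001d048469 on chromosome 9, assigned to β-carotene hydroxylase, which directs β-carotene toward xanthophylls and away from strigolactones. It had an RPKM of 0.416 in −N, 1.30 in +NO3- and 1.00 in +NO3- + cPTIO. Its direction with nitrate was opposite to that of the dioxygenases, with log2 ratios of 1.65 for +NO3- against −N and −0.38 for +NO3- + cPTIO against +NO3-. The other enzymes of the route, such as D27 and MAX1, and the strigolactone receptor D14 could not be located. Nor could the other parts of the symbiosis pathway, such as CCaMK. The reason is that 0 of the 49888 genes of the RefSeq table carry an identifier of the Zm00001d kind. These genes were not analysed.

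The study named CYCLOPS together with 3 other genes of root organogenesis, and all 3 of these were over 2-fold lower with nitrate, again by the study's choice. SCAR2, named after a subunit of the complex that promotes actin assembly, had an RPKM of 1.04 in −N, 0.436 in +NO3- and 0.548 in +NO3- + cPTIO. Its log2 ratio under cPTIO against +NO3- was 0.33, within 2-fold like that of CYCLOPS but of the opposite sign. Roothairless6, which in maize encodes a cellulose synthase-like protein needed for root hair growth, had 7.90, 2.39 and 0.170 RPKM. Scarecrow-like protein 26, of the GRAS family of transcriptional regulators, had 2.24, 0.908 and 0.183 RPKM. Like CCD7 and CCD8, these last genes were lower at both steps, and their log2 ratios under cPTIO against +NO3- were −3.82 and −2.31, larger in size than those of the dioxygenase genes.

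**Figure D4:**
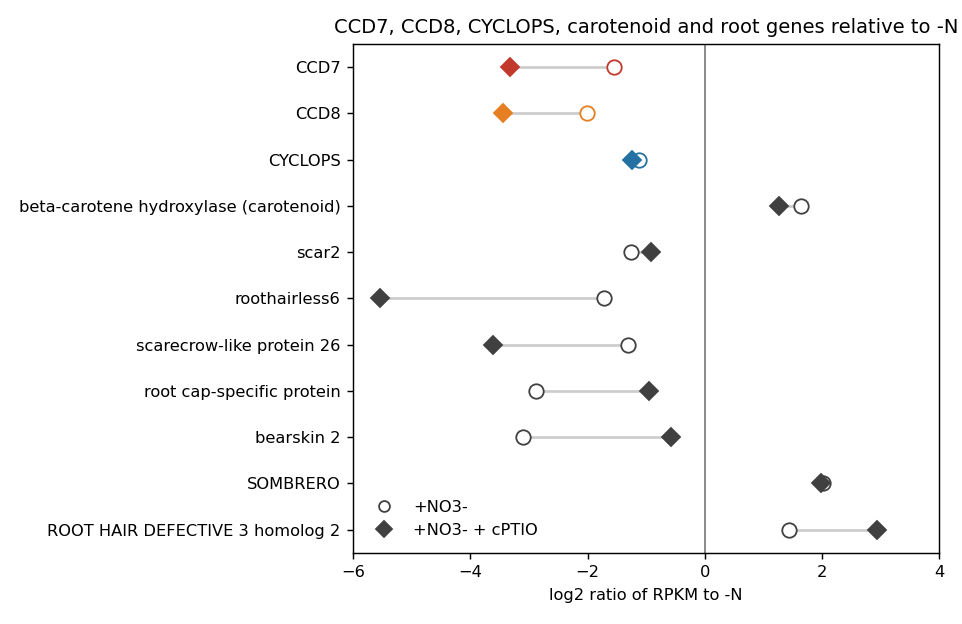
Log2 ratio of RPKM to −N in +NO3- (open circles) and in +NO3- + cPTIO (filled diamonds) for CCD7, CCD8 and CYCLOPS (coloured) and for the carotenoid, root organogenesis, root cap and root hair genes named in the text (grey), 1 pooled value each. CCD7, CCD8, roothairless6 and scarecrow-like protein 26 reach −3.32, −3.44, −5.54 and −3.62 with cPTIO, CYCLOPS stays near −1.24, and the β-carotene hydroxylase lies above 0.

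The samples are whole root apices, in which fewer cells of a type and less RNA per cell cannot be told apart. Genes that the study names for the root cap and root hairs were measured beside the 3 genes. None of these 5 genes was at 0 in any solution. The summed level of the 3 root cap genes was 47.7 RPKM in −N, 11.0 in +NO3- and 28.9 in +NO3- + cPTIO. Most of this sum came from the root cap-specific protein gene alone, with 44.7, 6.04 and 23.0 RPKM. The root cap-specific protein gene and bearskin 2 were lower with nitrate and higher again with cPTIO, and SOMBRERO, in Arabidopsis a NAC transcription factor of the root cap, was higher in both nitrate solutions than in −N. The sum of the 2 root hair genes was 8.16, 3.09 and 2.15 RPKM, of which roothairless6 made up most in −N, while ROOT HAIR DEFECTIVE 3 homolog 2 went the other way, from 0.259 in −N to 0.698 in +NO3- and 1.98 in +NO3- + cPTIO. The fall of the root hair sum came from roothairless6 alone, a gene of the study's cluster 3 like CCD7 and CCD8. Under cPTIO most of the sum was ROOT HAIR DEFECTIVE 3 homolog 2, so the 2 genes give no common root hair direction. The part of root hair cells in the values of CCD7 and CCD8 was not tested.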

How the data were processed

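The labels list 9 libraries, 3 per solution. Per the labels and the methods of the study, the authors trimmed reads with Trimmomatic 0.33, mapped them with TopHat2 2.0.13 to B73 RefGen_v4 (AGPv4) and computed expression with Cufflinks 2.2.1 (Cuffdiff), using quartile normalization, multi-read correction and hits compatible with transcripts. The authors deposited 1 RPKM per gene and solution, pooled over libraries, so this table holds no depth or value per library. The authors' tests and read totals, which they give elsewhere, were not used here.

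Ratios were computed without a pseudocount in Python 3.11.15 with pandas 2.3.3. Genes that reached 1 RPKM in either solution entered the counts past a 2-fold limit, and a value of 0 in 1 solution counted as past it. The value of 1 read was taken from the peak of RPKM times span over genes shorter than 1200 bases. Cluster membership and pathway assignments came from the study's tables, and all values from the deposited table. The count of genes past the 2-fold limit was tested on simulated data, and the other steps were not.

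Named genes are CCD7, CCD8, CYCLOPS, the genes the study lists beside them, the 5 nearest profiles per gene (of which some are named), and genes within 100 kb. The members and lists were chosen with earlier results of these data known. The place among genes of like level, and the sums and ratios between genes, were added after seeing the data. Sequences were not used here.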

Additional observations from a re-analysis of the deposited data

How the results depend on the processing

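No paired analysis was possible because each solution has a single pooled value, and for the same reason no library could be left out. Each of the 9 log2 ratios of CCD7, CCD8 and CYCLOPS was recomputed under 4 settings, and of the 36 values 32 moved by less than 1.5-fold, 4 moved by more and 0 changed sign. The 4 came from a pseudocount of 1 RPKM, which understates ratios of weakly expressed genes. With it, +NO3- + cPTIO against +NO3- gave −0.62 for CCD7 and −0.78 for CCD8, both then within 2-fold, and +NO3- + cPTIO against −N gave −1.58 for CCD7 and −2.37 for CCD8. The same pseudocount also brought +NO3- against −N within 2-fold for CCD7 (−0.96) and CYCLOPS (−0.90), and +NO3- + cPTIO against −N for CYCLOPS (−0.98). Rescaling the solutions to a common median ratio or upper quartile shifted any log2 ratio by less than 0.1.

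Genes over 2-fold lower with nitrate made up 5.16% at a minimum of 0.1 RPKM, 1.62% at 5 and 8.73% without one, 5.43% at a limit of 1.5-fold and 1.46% with a pseudocount of 1. Genes higher with nitrate made up 10.7%, 2.84%, 15.1%, 11.7% and 2.51% under these settings. Without a minimum, +NO3- + cPTIO against +NO3- gave 21.3% lower and 12.4% higher, and against −N 16.8% and 15.2%. At 1.5-fold the shares were 23% and 13.7% against +NO3-, and 19% and 15.5% against −N. With a pseudocount of 1, 8.14% were lower than in +NO3- and 5.91% lower than in −N.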

Other observations

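The estimated value of 1 read in the deposited table was 1.38 times as large in +NO3- + cPTIO as in −N. It fell into the same bin in +NO3- and −N, with bins 0.002 wide in units of RPKM times kilobases. The peak bin held 65 of 950 short genes with low values in −N, 78 of 969 in +NO3- and 49 of 534 in +NO3- + cPTIO, so the estimate is rough. The number of genes above 0 was 28875 in +NO3- + cPTIO, 29589 in −N and 30266 in +NO3-.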
